A study of Mus musculus with 15 samples.

Results

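Gene expression in mouse hematopoietic stem cells (HSCs) of the GFP3 bin was compared with that of the undivided HSC sort, called Total, over all genes whose linear value reached 1 in 3 or more of the 15 libraries. Of 31298 gene symbols in the table, 27994 met that rule. Of these, 27685 are described as one set, and the 309 symbols that begin with Igh, Igk or Igl, nearly all of them immunoglobulin genes, are reported apart. All mice carried the hCD34-tTA and TetO-H2BGFP transgenes, in which a transactivator under human CD34 regulatory sequence drives a fusion of histone H2B with green fluorescent protein, GFP. The transgene therefore labels only cells in which that sequence is active. Doxycycline at 1 mg/ml in the drinking water stopped label synthesis in every group, Total included, so no group is free of the transgenes or of doxycycline. Bone marrow cells were sorted as lineage-negative, Sca1-positive and c-Kit-positive (LSK) cells without CD48 and Flk2 and with CD150, and GFP3 is 1 of 4 bins by the H2BGFP that such cells had kept. Each group had 3 libraries, numbered I, II and III, whose mice were 5, 5.5 and 6.5 months old and had received doxycycline for 12, 14 and 16 weeks. A higher bin number is taken to mean more label kept, which the labels do not state, and they do not say whether a library came from 1 mouse or several, or how many cells of each bin Total held.

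Histone H2B stays on chromatin for a long time, so that a cell which has stopped making the fusion protein loses it mainly by dividing, and bright cells are those that divided least. HSCs divide rarely, and the label separates cells by how often they have done so. Genes of DNA replication and mitosis, which are switched on in cycling cells, and genes typical of dormant HSCs are therefore the groups most often read in such material. CD150-positive HSCs also carry low levels of megakaryocyte and platelet transcripts, and a sort from marrow can hold cells or RNA of mature lineages.

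All values are deposited log2 values on a quantile normalized scale, and a difference is GFP3 minus Total. Read depth is unknown, and a difference in total RNA per cell cannot be seen on this scale. In bulk samples fewer cells of a type and less RNA per cell cannot be told apart. Across 10229 genes, the GFP3 libraries correlated with each other at Pearson's r of 0.966 to 0.978 and the Total libraries at 0.936 to 0.963, while pairs of a GFP3 and a Total library gave 0.921 to 0.954. The genes are not independent replicates. Total replicate III had the lowest array weight of the 15 libraries (0.434). The number of symbols at the lowest value ran from 4041 in GFP3 replicate I to 9778 in Total replicate II. The genes required by the sort were present, and those it excluded were not absent. Kit was 15.94, 15.98 and 15.57 in GFP3 and 15.69, 15.39 and 14.63 in Total, and Ly6a, which encodes Sca1, and Slamf1, which encodes CD150, lay between 11.05 and 13.89 in all 6 libraries. Cd48 lay between 7.34 and 9.93 and Flt3, which encodes Flk2, between 9.73 and 10.09.

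Most DNA replication genes and 22 genes of plasma cells and antibody secretion fell in GFP3 relative to Total, as did some genes of mitosis, platelets and red cells, and 9 genes of the HSC signature and 6 interferon-response genes rose. limma called 188 genes higher in GFP3, 0.679% of those tested, and 362 lower, 1.31%, at an adjusted p under 0.05. At an unadjusted p under 0.05 there were 2003 and 1673. Most changes were small: 18 of the higher and 116 of the lower genes changed at least 2-fold, and the medians were 0.58 and −0.74. In every one of the 188 and the 362 the 3 GFP3 libraries did not overlap the 3 Total libraries, which held for 4384 genes (15.8%) over all genes tested. Without overlap the 3 differences between libraries of one number must have one sign. The called genes were well expressed, with median levels of 63.2 and 44.7 ppm of the summed linear values against 0.991 ppm over all genes tested, and 98.9% and 96.8% of those with a biotype were protein coding, against 78.5%. With the replicate number as a block the counts were 371 higher and 493 lower. Single libraries moved the counts further: 30 higher and 135 lower were called without GFP3 replicate II, 41 and 161 without GFP3 replicate III and 124 and 236 without Total replicate III. With quantile normalization repeated without immunoglobulin genes the split moved to 126 higher and 413 lower.

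**Figure D1:**
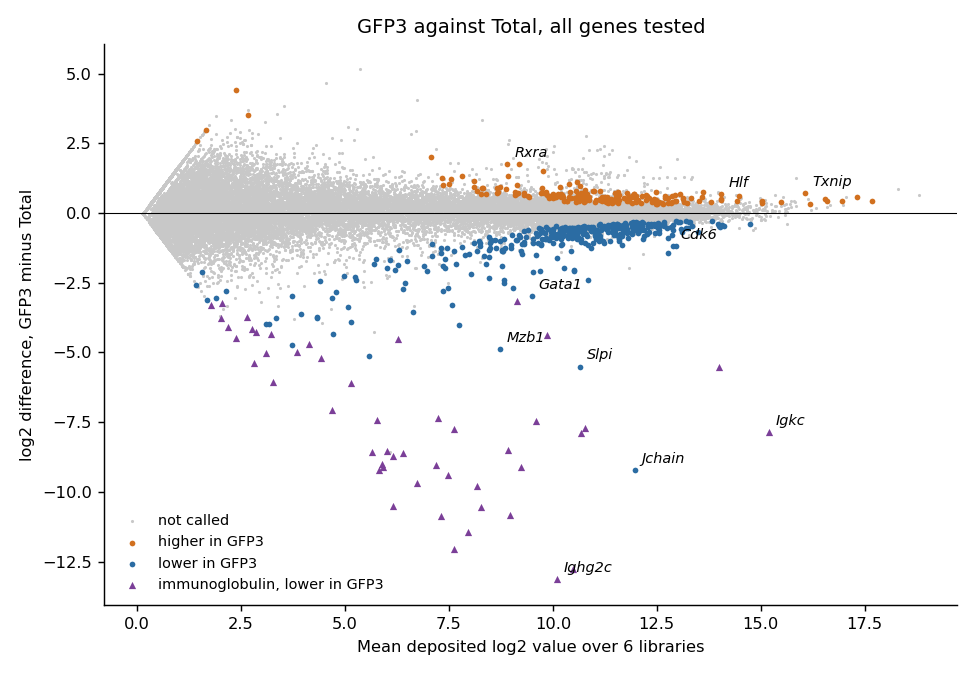
Each point is 1 gene; the x axis is its mean deposited log2 value over the 6 GFP3 and Total libraries and the y axis the log2 difference, GFP3 minus Total. The 188 higher genes lie mostly within 1 of the zero line, and the immunoglobulin genes (triangles) reach −13.14.

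The called directions were also seen between GFP4 and GFP2, whose means do not enter the difference between GFP3 and Total. GFP4 and GFP2, the bins on either side of GFP3, share no library with GFP3 or Total. Of the 188 genes higher in GFP3, 179 (95.2%) had a higher mean in GFP4 than in GFP2, against 51.1% over all genes tested. Of the 362 lower genes, 335 (92.5%) had a lower mean in GFP4 than in GFP2, against 48.9%. The fit of GFP3 against Total drew its spread from all 15 libraries, so the sets were not chosen wholly without GFP4 and GFP2. All groups also share ages and lengths of doxycycline by replicate number, so this is not an independent test.

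The 10 largest rises among well expressed genes included receptors, kinase regulators and scaffold proteins. No gene of the cell cycle lists was called higher, so none could be among the 10. Rxra, which encodes the retinoid X receptor alpha, a nuclear receptor that pairs with retinoic acid receptors (chromosome 2, 27676440 to 27762957, GRCm38), was 9.44, 9.84 and 10.06 in GFP3 and 7.93, 7.95 and 8.16 in Total. Every GFP3 library lay more than 1 above every Total library, and the difference was 1.77 (SE 0.32, adjusted p = 0.00908, n = 3 per group). Phlpp1, a phosphatase of AKT (chromosome 1, 106171752 to 106394250), was 10.04, 10.13 and 10.04 against 8.32, 7.96 and 8.63, also a difference of 1.77 (SE 0.39, adjusted p = 0.0365). The GFP3 libraries of Phlpp1 were nearly equal, and most of the spread was in Total. Dmxl2, a regulator of the vacuolar proton pump (chromosome 9, 54365158 to 54501626), was 10.84, 10.74 and 10.36 against 9.73, 9.91 and 9.47, a difference of 0.94 (SE 0.15, adjusted p = 0.00204). The remaining 7 were Tanc2 (1.52), Cask (1.34), Slc12a2, a chloride cotransporter (1.12), Pacs2 (1.03), the AP-1 repressor Jdp2 (1.02), Zfp532 (0.98) and Il1rapl2 (0.92), with adjusted p from 0.00778 to 0.0423. Of the 10, Dmxl2 kept its call in all 17 alternatives and Tanc2 in all that left out 1 library. Rxra missed it without GFP3 replicate II (adjusted p = 0.052) or III (adjusted p = 0.0534), and Zfp532 without GFP3 replicate II (adjusted p = 0.106). Phlpp1 (adjusted p 0.0718 to 0.151) and Pacs2 (0.0515 to 0.175) missed it without any 1 of the 6 libraries. Cask (0.103 to 0.126), Slc12a2 (0.0766 to 0.152) and Jdp2 (0.0939 to 0.125) missed it without each library but Total replicate III, and Il1rapl2 (0.0614 to 0.237) without each but GFP3 replicate I.

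The 10 largest falls were mostly genes of antibody-secreting cells and of the erythroid and megakaryocyte lineages. Slpi, a secreted protease inhibitor (chromosome 2, 164354070 to 164389095), was 8.0, 8.16 and 7.52 in GFP3 and 12.62, 13.93 and 13.67 in Total. The groups were more than 4 apart, and the difference was −5.51 (SE 0.35, adjusted p = 1.27e-05). Gata1, the transcription factor of red cells and megakaryocytes (chromosome X, 7959260 to 7978071), was 8.58, 7.41 and 8.03 against 11.08, 10.71 and 11.11, a difference of −2.96 (SE 0.37, adjusted p = 0.00134). Mfsd2b, a sphingosine 1-phosphate exporter of red cells and platelets (chromosome 12, 4862440 to 4874359), was 10.18, 9.34 and 9.39 against 12.09, 11.96 and 12.05 (−2.40, SE 0.26, adjusted p = 0.000275). For Gata1 and Mfsd2b alike GFP3 replicate I was the highest of the GFP3 libraries, yet below every Total library. Jchain, Mzb1, Derl3, Pou2af1 and Sdc1 are described below with the antibody genes. St6gal1, a sialyltransferase, fell by 2.32 (SE 0.29, adjusted p = 0.00019) and the growth factor gene Fgf3 by 2.51 (SE 0.50, adjusted p = 0.0264). The call of Fgf3 was lost without GFP3 replicate II, GFP3 replicate III, Total replicate II or Total replicate III (adjusted p 0.0527 to 0.0915).

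**Figure D2:**
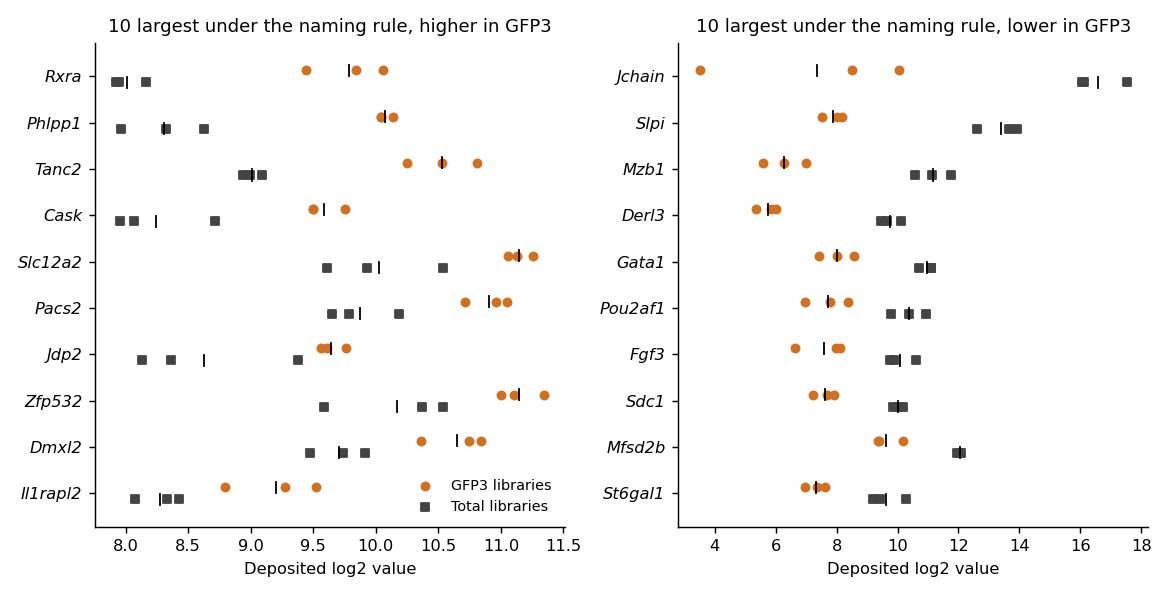
Deposited log2 values (x axis) in the 3 GFP3 libraries (circles) and the 3 Total libraries (squares) for the 10 largest rises (left) and falls (right) under the rule for named genes; short vertical lines are group means. The rule admits only genes whose groups do not overlap, and Jchain has the widest GFP3 spread, from 3.51 to 10.06.

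Some genes of the HSC signature rose in GFP3. Of 62 tested members 9 rose and 0 fell, against 0.679% higher and 1.31% lower over all genes tested outside the immunoglobulin symbols. A positive difference was seen in 54, against 15564 of those 27685 genes, and the median was 0.32, against 0.063. Hlf, a transcription factor of HSC maintenance (chromosome 11, 90336536 to 90390895), was 14.29, 14.48 and 14.41 in GFP3 and 13.85, 13.66 and 13.63 in Total. The values within each group were close, and the difference was 0.68 (SE 0.09, adjusted p = 0.000243). Mecom, which encodes the HSC factor EVI1 (chromosome 3, 29951296 to 30548008), was 13.34, 13.43 and 13.43 against 12.86, 12.89 and 12.33 (0.70, SE 0.12, adjusted p = 0.00223). Sult1a1, a sulfotransferase also listed among age-associated HSC genes (chromosome 7, 126672865 to 126676432), was 12.67, 12.92 and 12.99 against 12.05, 11.97 and 12.25 (0.77, SE 0.11, adjusted p = 0.000893). Txnip, a thioredoxin-binding protein (chromosome 3, 96557957 to 96561883), was 16.26, 16.48 and 16.57 against 15.79, 15.90 and 15.43 (0.73, SE 0.10, adjusted p = 0.000687). In all 4 genes the lowest GFP3 library lay above the highest Total library. The other rises included those of the lectin receptor Clec1a (0.76), the guanine deaminase Gda (0.79), Fgd5 (0.67) and Lmo2 (0.37), a bridging factor of blood transcription complexes.

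Several markers used to enrich HSCs did not pass. Procr, the endothelial protein C receptor (chromosome 2, 155751117 to 155755471), was 11.93, 12.76 and 12.81 in GFP3 and 11.42, 11.84 and 12.00 in Total, with a difference of 0.75 (SE 0.35, adjusted p = 0.394). Replicate I was the lowest library in both groups, and the lowest GFP3 library lay below the highest Total library. With the replicate block the adjusted p of Procr was 0.0599. Vwf, the von Willebrand factor of platelet-biased HSCs, was 13.55, 13.43 and 13.61 against 13.53, 12.97 and 13.64, with overlapping groups (0.15, SE 0.23, adjusted p = 0.866). Slamf1 (0.07), Kit (0.60) and Ly6a (−0.12) did not pass either. Cd34, whose protein marks progenitors and whose human regulatory sequence drives the transgene, was 12.64, 12.41 and 12.42 against 12.98, 12.76 and 12.82. All 3 GFP3 libraries were below Total, and the difference of −0.36 (SE 0.09) missed the threshold narrowly (adjusted p = 0.0529). Cd34 passed in the normalization without immunoglobulin genes (adjusted p = 0.038) and with a filter at a mean of 1 ppm (0.034). It also passed without GFP3 replicate I (0.0292), with the count of lowest-value genes as a covariate (0.0251) and with the replicate block (0.0203). With that block 15 members of the signature were called higher and 1 lower. With single libraries left out the number higher ran from 4, without GFP3 replicate II or III, to 15, without GFP3 replicate I, and it was 3 with the groups compared alone and 3 without intensity trend and robust moderation. Fgd5 missed the threshold without GFP3 replicate II or III or Total replicate I or II (adjusted p 0.0778 to 0.153).

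DNA replication genes fell almost throughout. Of 52 S phase genes 41 fell and 0 rose, against 1.31% lower over all genes tested. All 52 had a negative difference, against 12121 of 27685, and the median was −0.65. Licensing and helicase genes, which load and start replication origins, had 13 of 16 lower, polymerase and clamp genes 12 of 16, nucleotide supply genes 4 of 6 and replication-linked chromatin genes 12 of 14. Lig1, the ligase that seals lagging-strand fragments (chromosome 7, 13277283 to 13311433), was 11.41, 10.99 and 10.98 in GFP3 and 12.04, 12.03 and 12.14 in Total (−0.94, SE 0.11, adjusted p = 0.000101). Uhrf1, which recruits the maintenance DNA methyltransferase (chromosome 17, 56303321 to 56323486), was 11.91, 11.56 and 11.62 against 12.65, 12.47 and 12.73 (−0.92, SE 0.12, adjusted p = 0.000265). Mcm5, a subunit of the replicative helicase, was 12.59, 12.22 and 12.16 against 13.34, 13.08 and 13.19 (−0.88, SE 0.14, adjusted p = 0.00165). GFP3 replicate I was the highest GFP3 library in all 3 genes and still lay below Total. The largest falls were those of the polymerase epsilon subunit gene Pole2 (−1.13), E2f8 (−1.11), the uracil glycosylase gene Ung (−1.09) and Mcm10 (−1.07), each close to a 2-fold change. GFP4 and GFP2, which entered the fit through its spread, had the same order. All 52 genes had a lower mean in GFP4 than in GFP2, with a median of −0.79.

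Genes of G2 and M phase had a larger median fall and fewer calls. Of 64 tested, 20 fell and 0 rose, against 1.31% lower over all genes tested. A negative difference was seen in 63, and the median was −0.78. Cdca8, a subunit of the chromosomal passenger complex (chromosome 4, 124918465 to 124939311), was 11.18, 10.52 and 10.92 in GFP3 and 11.86, 11.61 and 12.11 in Total (−0.99, SE 0.17, adjusted p = 0.00367). Lmnb1, the lamin B1 gene, was 11.96, 11.43 and 11.70 against 12.54, 12.38 and 12.32 (−0.72, SE 0.13, adjusted p = 0.0044). The mitotic kinase genes Cdk1 (−0.90), Aurkb (−1.05), Ttk (−0.94) and Nek2 (−0.88) were among the called ones. Mki67, the proliferation antigen gene (chromosome 7, 135689784 to 135716361), was 13.44, 12.44 and 12.71 against 13.84, 13.57 and 13.59, and its difference of −0.80 (SE 0.27) did not pass (adjusted p = 0.184). GFP3 replicate I was the library nearest to Total, and without it Mki67 passed (adjusted p = 0.024). Counts over the list also moved with that library: 44 of the 64 genes were called lower without it, against 5 without GFP3 replicate II, 7 without GFP3 replicate III, 7 without Total replicate I and 6 without Total replicate III. For S phase 44 genes were called without GFP3 replicate I, 15 without GFP3 replicate II and 18 without GFP3 replicate III. With the groups compared alone 12 S phase and 1 G2 and M phase genes were lower, and without intensity trend and robust moderation 6 and 0.

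Few regulators of G1 entry passed, among them the kinase gene Cdk6. Cdk6, the kinase that drives exit from quiescence in HSCs (chromosome 5, 3341485 to 3531008), was 12.43, 12.23 and 12.23 in GFP3 and 13.51, 13.56 and 13.37 in Total. The groups were nearly 1 apart, and the difference of −1.18 (SE 0.10, adjusted p = 1.76e-06) was called in every alternative. Of 29 genes of G1 entry and quiescence 3 fell and 0 rose, against 1.31% lower over all genes tested. The other 2 were Btg2, an antiproliferative gene that p53 induces (−0.96, SE 0.17, adjusted p = 0.0045), and the kinase inhibitor gene Cdkn2c (−0.94, SE 0.21, adjusted p = 0.0229), so inhibitors fell as well as the kinase. Cdkn1c, the kinase inhibitor p57 of quiescent HSCs (chromosome 7, 143458339 to 143461050), was 10.62, 10.96 and 11.28 against 10.33, 10.25 and 10.82. Its groups overlapped, and the difference of 0.49 (SE 0.20) did not pass (adjusted p = 0.288) except with the replicate block (adjusted p = 0.0498).

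**Figure D3:**
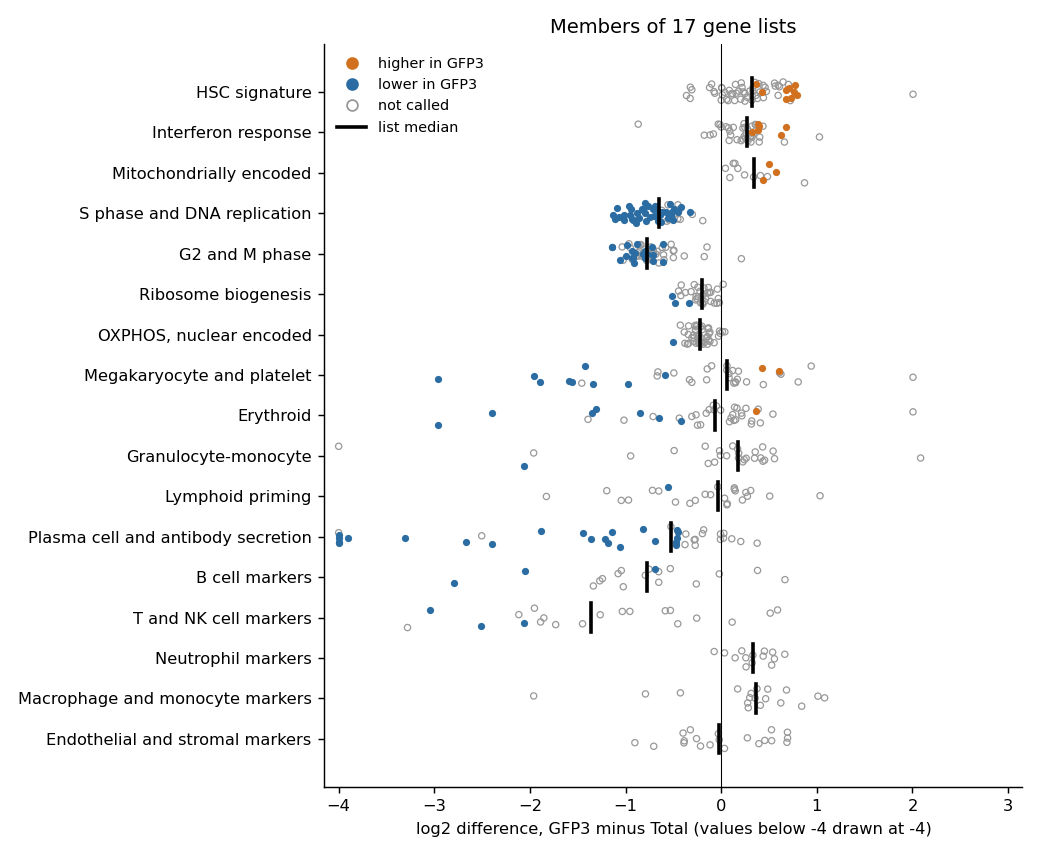
Each circle is 1 gene of a list, placed by its log2 difference, GFP3 minus Total (x axis); filled circles passed an adjusted p under 0.05, and thick lines are list medians (values below −4 are drawn at −4). S phase genes lie wholly below zero (median −0.65), HSC signature genes mostly above it (median 0.32), and the platelet, erythroid and plasma cell lists have long lower tails.

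Promoters of the called genes were read because the members of several lists moved together. The windows are from RefSeq, GRCm38.p6, 250 bases before to 50 after the first listed start, and both strands were searched. The E2F motif, TTTCCCGC or TTTGGCGC, was in 11 of 34 windows of called S phase genes (32.4%), in 15 of 43 windows of all tested S phase genes and in 1.63% of all 27025 windows. The CHR motif of mitotic genes, TTTGAA, was in 6 of 13 windows of called G2 and M phase genes (46.2%), in 36 of 50 of all tested members and in 18.1% of all windows, so that called members did not carry it more often than the list as a whole. The unfolded protein response element (ERSE), CCAAT and CCACG with 9 bases between them, was in 3 of 18 windows of called plasma cell and secretion genes (16.7%), in 5 of 31 of all tested members and in 0.130% of all windows. The GATA motif AGATAA was in 2 of 9 windows of lower platelet-list genes (22.2%) and 2 of 6 of lower erythroid genes (33.3%), in 5 of 29 and 8 of 27 of all tested members, and in 11.4% of all windows. The interferon element (ISRE), GAAA and GAAA with 2 bases between them, was in 3 of 5 windows of called interferon genes (60%), in 17 of 31 of all tested members and in 3.49% of all windows. The motifs thus describe the lists, and no difference between called and other members was tested. CCAAT can also stand outside the ERSE, the E2F letters TTTCCCGC and TTTGGCGC do not overlap CHR, and a match describes letters, not a bound site. One window for each motif, and a second for E2F, is shown to 30 bases after the start, with the motif in capitals.
Mcm5 (E2F, chr8:75109259-75109538, plus strand): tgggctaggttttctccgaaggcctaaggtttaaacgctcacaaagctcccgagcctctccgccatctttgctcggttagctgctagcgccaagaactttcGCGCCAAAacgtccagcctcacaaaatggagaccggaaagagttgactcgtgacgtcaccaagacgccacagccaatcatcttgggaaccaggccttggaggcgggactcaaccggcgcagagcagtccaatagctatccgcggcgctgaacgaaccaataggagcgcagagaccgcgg
Pole2 (E2F, chr12:69228161-69228440, minus strand): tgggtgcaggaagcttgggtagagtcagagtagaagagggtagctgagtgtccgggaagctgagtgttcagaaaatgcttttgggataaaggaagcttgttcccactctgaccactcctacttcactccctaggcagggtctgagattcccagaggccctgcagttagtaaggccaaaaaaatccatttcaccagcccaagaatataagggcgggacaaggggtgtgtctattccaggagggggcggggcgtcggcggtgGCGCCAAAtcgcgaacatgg
Cdca8 (CHR, chr4:124936888-124937167, minus strand): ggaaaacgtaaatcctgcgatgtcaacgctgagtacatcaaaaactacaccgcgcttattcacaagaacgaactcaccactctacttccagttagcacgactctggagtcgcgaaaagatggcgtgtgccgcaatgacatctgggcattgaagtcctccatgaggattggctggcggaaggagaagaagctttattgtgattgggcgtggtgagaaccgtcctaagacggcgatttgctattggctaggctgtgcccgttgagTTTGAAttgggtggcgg
Creld2 (ERSE, chr15:88819396-88819675, plus strand): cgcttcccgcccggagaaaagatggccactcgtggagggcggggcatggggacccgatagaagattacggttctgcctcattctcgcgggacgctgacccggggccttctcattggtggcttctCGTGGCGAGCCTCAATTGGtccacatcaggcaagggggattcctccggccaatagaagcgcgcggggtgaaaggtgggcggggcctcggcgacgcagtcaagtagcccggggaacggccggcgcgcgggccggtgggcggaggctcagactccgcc
Gp5 (GATA, chr16:30310752-30311031, minus strand): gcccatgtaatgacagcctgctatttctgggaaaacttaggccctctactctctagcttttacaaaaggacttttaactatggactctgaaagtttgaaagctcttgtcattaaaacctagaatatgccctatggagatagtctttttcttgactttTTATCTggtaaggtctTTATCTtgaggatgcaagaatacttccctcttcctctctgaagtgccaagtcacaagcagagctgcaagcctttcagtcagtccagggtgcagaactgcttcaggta
Gbp7 (ISRE, chr3:142530086-142530365, plus strand): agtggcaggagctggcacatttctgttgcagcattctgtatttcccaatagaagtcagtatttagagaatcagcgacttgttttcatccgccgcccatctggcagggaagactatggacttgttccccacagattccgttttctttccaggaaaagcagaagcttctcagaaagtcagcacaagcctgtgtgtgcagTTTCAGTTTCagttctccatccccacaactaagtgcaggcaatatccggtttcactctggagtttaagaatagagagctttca

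Some platelet and erythroid genes fell, while the lists had no common direction. Of 37 megakaryocyte and platelet genes 9 fell and 2 rose, against 1.31% lower and 0.679% higher over all genes tested. In this list 19 had a positive and 18 a negative difference, and the median was 0.059. With the groups compared alone, or without intensity trend and robust moderation, 6 were lower. Surface glycoproteins held most of the falls (7 of 15), against 1 of 15 granule and cytoskeleton genes. Gp5, a subunit of the platelet receptor for von Willebrand factor (chromosome 16, 30307685 to 30310779), was 9.53, 8.96 and 9.40 in GFP3 and 10.84, 10.72 and 11.11 in Total (−1.59, SE 0.17, adjusted p = 2.91e-05). Tuba8, an alpha tubulin gene (chromosome 6, 121210696 to 121226854), was 9.72, 9.05 and 9.12 against 11.13, 11.29 and 11.32 (−1.95, SE 0.17, adjusted p = 4.23e-06). The gene of the alpha chain of the platelet fibrinogen receptor, Itga2b (chromosome 11, 102453297 to 102470122), was 12.26, 11.74 and 12.18 against 13.40, 13.26 and 13.79 (−1.42, SE 0.21, adjusted p = 0.0034). The 3 genes were called in every alternative, and their groups were about 1 or more apart. The other falls were those of Gata1, Gp1bb (−1.90), F2rl2 (−1.56), Gp1ba (−1.34), Treml1 (−0.97) and the thrombin receptor gene F2r (−0.59). The platelet granule protein gene Mmrn1 rose (0.60, SE 0.14, adjusted p = 0.04). Mmrn1 did not pass in the normalization without immunoglobulin genes (adjusted p = 0.0818), nor without GFP3 replicate I (0.0545), II (0.192) or III (0.113) or Total replicate III (0.0574). Neither rise of the list was called in that normalization, where 0 genes were higher and 10 lower.

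In the erythroid list of 38, 7 fell and 1, Lmo2, rose, against 1.31% lower and 0.679% higher over all genes tested. The list had 17 positive and 21 negative differences and a median of −0.062. Icam4, a red cell adhesion protein (chromosome 9, 21029373 to 21030595), was 8.34, 8.15 and 7.89 in GFP3 and 9.24, 9.39 and 9.68 in Total (−1.31, SE 0.18, adjusted p = 0.000569). Epor, the erythropoietin receptor, was 8.77, 8.76 and 8.84 against 9.61, 9.39 and 9.91 (−0.85, SE 0.19, adjusted p = 0.0264). Klf1, the erythroid Kruppel-like factor, was 8.47, 7.85 and 8.02 against 9.59, 8.90 and 9.89 (−1.35, SE 0.32, adjusted p = 0.0392). In each case the groups did not overlap. The heme enzyme gene Alad (−0.42) also fell. Without GFP3 replicate II or III or Total replicate I or III 4 genes of the list were lower, and 3 with the groups compared alone or without intensity trend and robust moderation. Lmo2 missed the threshold in the normalization without immunoglobulin genes (adjusted p = 0.0602) and without GFP3 replicate II (adjusted p = 0.117) or III (adjusted p = 0.065).

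Genes of the other blood lineages gave few calls. Over all genes tested 1.31% were lower. Of 27 granulocyte-monocyte genes 1 fell, Nkg7, a granule protein also listed for T and NK cells. It was 9.43, 9.54 and 9.49 in GFP3 and 11.04, 11.75 and 11.86 in Total (−2.06, SE 0.26, adjusted p = 0.00089). The myeloid factor genes Spi1 (−0.02) and Cebpa (−0.07) and the granule enzyme gene Mpo (0.35) did not pass. Of 25 lymphoid priming genes 1 fell, the tetraspanin gene Cd37 (−0.56, SE 0.14, adjusted p = 0.0438). Without GFP3 replicate I, II or III or Total replicate II or III Cd37 missed the threshold (adjusted p 0.068 to 0.211).

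Immunoglobulin genes had the largest fitted differences between GFP3 and Total. Their share of all linear values added up was 0.0144% to 0.0626% in GFP3 libraries and 4.35% to 5.50% in Total libraries. The share was also low in GFP4 (0.0114% to 0.0764%) and GFP2 (0.00953% to 0.0184%), and 4.93% to 5.28% in GFP1. A low share was thus not particular to GFP3. Because all libraries share one distribution, these are shares of ranks rather than of RNA. Of 309 tested, 49 (15.9%) were lower in GFP3 and 0 higher, against 1.31% lower and 0.679% higher over the genes outside these symbols. The filter counted all 15 libraries, so a symbol could pass it without any GFP3 library. Such a symbol could hardly be called higher in GFP3, so the lack of rises is partly set by the filter. Constant genes had 7 of 13 lower, heavy chain variable segments 28 of 155, kappa segments 12 of 135 and lambda segments 2 of 3. Variable segments above a log2 value of 8 numbered 0 to 2 in GFP3 and 60 to 83 in Total. Segments resemble each other closely and can share reads, so a single segment is uncertain. The symbols Ighmbp2 (0.07), Iglon5 (1.33) and Igll1 (0.38) match the rule by spelling, are not immunoglobulin genes, and did not pass.

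All 12 immunoglobulin constant genes under the naming rule had a lower mean in GFP3, though not all passed. For Ighe that mean rested on Total replicate II (5.68), since every other GFP3 and Total library was at 0.14 (adjusted p = 0.593). Ighg1 had overlapping groups (adjusted p = 0.653). Igkc, the kappa constant gene (chromosome 6, 70726435 to 70726966), was 11.45, 12.67 and 9.65 in GFP3 and 19.12 in each Total library, the highest value the distribution holds, so its difference of −7.86 (SE 0.87, adjusted p = 0.00135) is limited by that ceiling. Ighg2c (chromosome 12, 113285325 to 113288932) was 3.19, 4.91 and 2.46 against 15.90, 17.13 and 16.94, the largest difference among these 12 (−13.14, SE 0.69, adjusted p = 8.27e-06). Ighm, the IgM heavy chain (chromosome 12, 113418558 to 113422730), was 12.14, 11.24 and 10.38 against 17.75, 14.77 and 17.75 (−5.50, SE 1.04, adjusted p = 0.0264). Total replicate II had less Ighm than the other Total libraries and the call was lost without GFP3 replicate II or III or Total replicate I or III (adjusted p 0.0692 to 0.112). Igha, the IgA heavy chain, was 1.34, 12.42 and 3.94 against 17.29, 18.75 and 17.29. GFP3 replicate II stood far above the other GFP3 libraries, and the difference of −11.88 (SE 3.01) did not pass (adjusted p = 0.0846) except without that library (adjusted p = 0.0383) and with a filter at a mean of 1 ppm (adjusted p = 0.0443). Ighd, the IgD chain of naive B cells, was 7.78, 8.84 and 8.26 against 9.69, 10.75 and 9.41 (−1.66, SE 0.57, adjusted p = 0.2; 0.00442 with the replicate block).

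**Figure D4:**
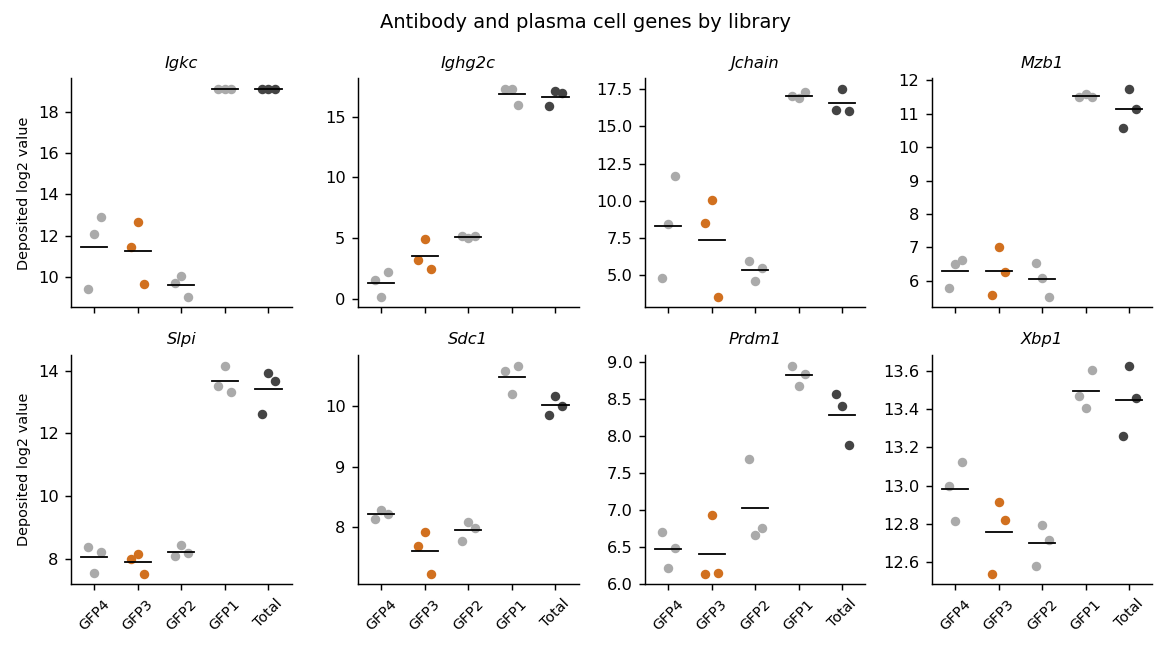
Deposited log2 values (y axis) of 8 antibody and plasma cell genes in all 15 libraries, by group (x axis); points are replicates I, II and III from left to right and lines are means. For each gene every GFP3 library lies below every Total library, from −0.69 on average for Xbp1 to −13.14 for Ighg2c, and Igkc is at 19.12 in every Total library.

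Genes of plasma cells, which secrete antibody, moved with the immunoglobulin genes. Of 39 listed genes 22 fell in GFP3 and 0 rose, against 1.31% lower over all genes tested, with a median of −0.53. The list median against Total was −0.66 in GFP4, −0.46 in GFP2 and 0.14 in GFP1, so the fall was not particular to GFP3. Jchain, which joins IgA and IgM into polymers (chromosome 5, 88519809 to 88527891), was 8.50, 10.06 and 3.51 in GFP3 and 16.14, 17.54 and 16.04 in Total (−9.22, SE 1.81, adjusted p = 0.0316). GFP3 replicate III was far below the others, and the call was lost without it or without any Total library (adjusted p 0.0609 to 0.0841). Mzb1, a chaperone of antibody assembly, was 5.59, 7.01 and 6.26 against 10.56, 11.75 and 11.15 (−4.87, SE 0.36, adjusted p = 4.23e-06). Sdc1, the plasma cell surface protein CD138 (chromosome 12, 8771323 to 8793715), was 7.69, 7.92 and 7.24 against 9.86, 10.17 and 10.01 (−2.40, SE 0.19, adjusted p = 1.12e-06). Prdm1, the plasma cell transcription factor BLIMP1 (chromosome 10, 44437177 to 44528501), was 6.14, 6.93 and 6.15 against 8.57, 8.41 and 7.88 (−1.88, SE 0.30, adjusted p = 0.00162). In each of these genes every GFP3 library lay below every Total library. Xbp1, which expands the secretory pathway and is expressed well beyond plasma cells, fell by 0.69 (SE 0.11, adjusted p = 0.00204). Tnfrsf17, the receptor BCMA (−3.90), Slamf7 (−3.30), the B cell coactivator gene Pou2af1 (−2.67) and the endoplasmic reticulum genes Derl3 (−4.0), Sdf2l1 (−1.36), Txndc5 (−1.18) and Creld2 (−1.06) fell too.

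Lists of B cell and of T and NK cell markers had medians of −0.77 and −1.36, and each had 3 genes lower, against 1.31% lower over all genes tested. Medians against Total were negative in the neighbouring bins too. They were −1.13 in GFP4 and −1.13 in GFP2 for B cells, and −0.98 and −1.02 for T and NK cells. Of 18 B cell markers 3 fell, the antigen receptor chains Cd79a (−2.05, SE 0.36, adjusted p = 0.015) and Cd79b (−0.69, SE 0.16, adjusted p = 0.0244) and Fcrla (−2.80, SE 0.65, adjusted p = 0.0477). With the replicate block 8 markers were lower. With single libraries left out the number lower was 0 without GFP3 replicate III, 1 without GFP3 replicate I or Total replicate II and 2 without any of the others. Cd79a then missed the threshold without GFP3 replicate III (adjusted p = 0.0708) and Cd79b without each library but Total replicate I (adjusted p 0.051 to 0.0954). Of 20 T and NK cell markers 3 fell, Nkg7, Cd5 (−3.05, SE 0.57, adjusted p = 0.00671) and Cd3g (−2.51, SE 0.55, adjusted p = 0.025). The summed linear values of the plasma cell list were 2937 to 2957 ppm in GFP3 and 6133 to 10182 ppm in Total, of 17 B cell markers 455 to 1030 and 849 to 1522 ppm, and of the T and NK list 73.2 to 90.5 and 133 to 225 ppm. Within GFP3 and Total, Gzma alone of these lists was at the lowest value in all 3 libraries of a group, GFP3. None of 14 neutrophil, 18 macrophage and 20 endothelial and stromal markers passed, and 1 of 17 mast cell, basophil and eosinophil markers, the protease gene Cpa3, fell (−1.81, SE 0.42, adjusted p = 0.0374; no call without any 1 of the 6 libraries, adjusted p 0.0507 to 0.186). The part of mature lymphoid cells or their RNA in the differences of other genes was not tested.

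A few interferon-response genes rose, by less than 2-fold. Of 44 listed 6 rose and 0 fell, against 0.679% higher over all genes tested, and the median was 0.27. With the groups compared alone 0 were called, and without intensity trend and robust moderation 1. All 6 were effectors, and none of the 6 sensors or 5 transcription factors of the list passed. Ifi44 (chromosome 3, 151730922 to 151749960) was 12.18, 12.25 and 12.22 in GFP3 and 11.76, 11.64 and 11.38 in Total (0.63, SE 0.10, adjusted p = 0.00139). The GTPase gene Iigp1 was 12.18, 12.14 and 12.52 against 11.63, 11.70 and 11.49 (0.67, SE 0.13, adjusted p = 0.00694). The groups were apart in both genes, with Iigp1 lost without GFP3 replicate III (adjusted p = 0.0553). Oasl2 (0.39), Gbp2 (0.38), Gbp7 (0.38) and Irgm1 (0.33) made up the rest. Without GFP3 replicate III 1 gene of the list was called and without GFP3 replicate II 2.

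Few mitochondrial and biosynthetic genes passed. All 13 mitochondrially encoded genes had positive differences, and 3 rose, against 0.679% higher over all genes tested. mt-Co1, a cytochrome oxidase subunit, was 17.54, 17.54 and 17.75 in GFP3 and 17.02, 16.94 and 17.13 in Total (0.57, SE 0.07, adjusted p = 0.000194), and mt-Co2 rose by 0.50 (SE 0.08, adjusted p = 0.00217). These genes sit at the top of the distribution, where the immunoglobulin genes of Total also sit, and in the normalization without immunoglobulin genes neither passed (adjusted p = 1 and 0.544), 0 of the 13 were called and the list median was 0.072. The same holds for B2m, the light chain of MHC class I, which was 0.43 higher (SE 0.08, adjusted p = 0.00699) and not called there (adjusted p = 0.836), nor without GFP3 replicate II (adjusted p = 0.0611) or III (adjusted p = 0.0551). Of 48 nuclear-encoded genes of oxidative phosphorylation 46 had negative differences and 1 passed, Ndufa1 (−0.51, SE 0.13, adjusted p = 0.0475), a share near the 1.31% lower over all genes tested. Of 34 ribosome biogenesis genes 33 had negative differences, against 12121 of 27685 over all genes tested. In this list 3 passed, Ltv1 (−0.52), Nhp2 (−0.49) and Nop56 (−0.34), against the same 1.31%. Ndufa1 and Nop56 each missed the threshold with single libraries left out (adjusted p up to 0.19 and 0.154), while Ltv1 did not (0.00931 to 0.0444).

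Among chromatin genes the catalytic pair of one complex was called in opposite directions. Ezh1, the methyltransferase of Polycomb repressive complex 2 (PRC2) in resting cells (chromosome 11, 101191115 to 101226463), was 12.05, 12.06 and 12.05 in GFP3 and 11.75, 11.67 and 11.46 in Total (0.43, SE 0.10, adjusted p = 0.0365). Its paralog Ezh2, the enzyme of dividing cells (chromosome 6, 47530139 to 47595341), was 11.53, 10.94 and 11.11 against 11.93, 11.80 and 11.63 (−0.59, SE 0.14, adjusted p = 0.0364). The pair thus moved in opposite directions with no overlap of groups. Both lay near the threshold: Ezh1 missed it without GFP3 replicate I, II or III or Total replicate II or III (adjusted p 0.059 to 0.145), and Ezh2 without GFP3 replicate II or III or Total replicate I or II (0.0838 to 0.216). None of the other 11 PRC2 genes and none of 20 PRC1 genes passed. Over all genes tested 0.679% were higher and 1.31% lower. In the DNA methylation list of 16, Uhrf1, Dnmt1 (−0.53, SE 0.11, adjusted p = 0.0121; 0.0752 without GFP3 replicate II and 0.0819 without III) and the demethylation glycosylase gene Tdg (−0.40) fell.

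In signalling lists single genes were called, where 0.679% of all genes tested were higher and 1.31% lower. Acvr1, a type I receptor for BMP and activin (chromosome 2, 58388644 to 58567157), was 8.14, 8.28 and 7.82 in GFP3 and 5.47, 6.49 and 6.20 in Total (2.03, SE 0.32, adjusted p = 0.00158). Tgfb1, the ligand TGF-beta 1 (chromosome 7, 25687002 to 25705077), was 11.88, 11.90 and 11.90 against 12.64, 12.38 and 12.85 (−0.73, SE 0.11, adjusted p = 0.000903). They were the 2 genes called of 29 in the TGF-beta and BMP list, both in every alternative, and the list's median was 0.26. With the replicate block 4 of the list were higher. Rxra was the 1 gene called of 17 in the retinoic acid list, which became 3 with the block. Cyp26b1, the enzyme that degrades retinoic acid in HSCs (chromosome 6, 84571414 to 84593908), was 9.44, 10.08 and 10.09 against 8.95, 9.15 and 9.39. Its groups did not overlap, and the difference of 0.70 (SE 0.19) lay just past the threshold (adjusted p = 0.0549). Cyp26b1 passed with the block (adjusted p = 0.0166), with a filter at a mean of 1 ppm (0.0371) and with array weights (0.0482). It also passed without GFP3 replicate I (0.0097) or Total replicate III (0.0473). Among 13 imprinted growth genes Grb10 (0.41, adjusted p = 0.0396) and Igf2r (0.59, adjusted p = 0.049) rose, calls not made in the normalization without immunoglobulin genes (adjusted p = 0.0546 and 0.0602). Single libraries ended them too, Grb10 without any GFP3 library or Total replicate III (adjusted p 0.0629 to 0.194) and Igf2r without GFP3 replicate I or II or Total replicate III (0.0998 to 0.269). The glucose transporter gene Slc2a3 (0.39, SE 0.08, adjusted p = 0.0181) was the 1 call of 25 glycolysis genes, lost without GFP3 replicate II (adjusted p = 0.141) or Total replicate III (adjusted p = 0.0515). None of 26 cholesterol synthesis genes passed. Of 22 p53 target genes 2 fell, Btg2 and the mitotic regulator gene Gtse1 (−1.04, adjusted p = 0.0364; 0.19 without GFP3 replicate II, 0.0842 without GFP3 replicate III, 0.073 without Total replicate I and 0.136 without Total replicate III). Of 25 immediate early genes 1 fell, Btg2 again.

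GFP3 was then set against the bins on either side, to place its difference from Total in the label range. Against GFP4, 16 genes were called (0.0578%), 12 higher in GFP3 and 4 lower, with 932 and 704 at an unadjusted p under 0.05. Against GFP2 limma called 0 genes (0%), with 747 and 818 at an unadjusted p under 0.05. Of the 16 genes 9 were called against Total too: Cdca7, Cdk6, Cit, Gbp9, Gm13237, Lmnb1, Ran, Slc22a3 and Tuba8. On group means GFP3 lay between GFP4 and Total for each. Without GFP3 replicate II 109 genes were higher and 12 lower than in GFP4, without GFP4 replicate III 0 and 0. Cdk6 was 11.67, 11.52 and 11.56 in GFP4, 12.43, 12.23 and 12.23 in GFP3, 13.02, 12.72 and 12.97 in GFP2 and 13.51, 13.56 and 13.37 in Total. No neighbours in that order overlapped, with 0.71 between GFP3 and GFP4 (SE 0.10, adjusted p = 0.00736) and −0.61 between GFP3 and GFP2 (adjusted p = 0.0642). Slc22a3, an organic cation transporter (chromosome 17, 12418960 to 12507704), was 8.92, 9.34 and 8.81 in GFP4, 10.66, 10.12 and 10.09 in GFP3, 11.16, 11.08 and 11.26 in GFP2 and 11.66, 11.66 and 11.32 in Total. The GFP3 libraries enter all 3 contrasts, so these differences are not independent of each other.

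**Figure D5:**
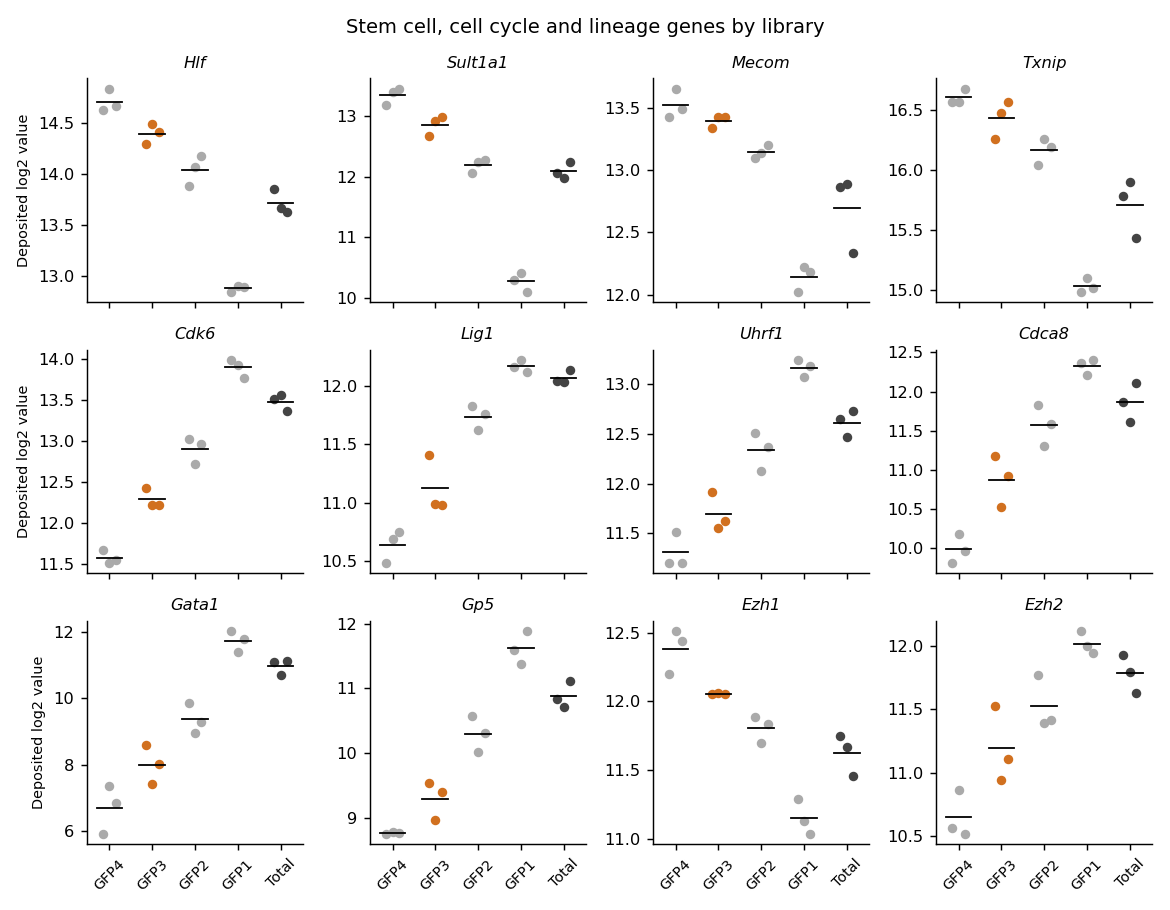
Deposited log2 values (y axis) of 12 stem cell, cell cycle, lineage and Polycomb genes in all 15 libraries, by group (x axis); points are replicates I, II and III from left to right and lines are means. The GFP3 mean lies between those of GFP4 and GFP2 for each gene, above Total for Hlf, Sult1a1, Mecom, Txnip and Ezh1 and below it for the other 7.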

How the data were processed

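RNA from sorted HSCs was amplified with SMART-Seq v4 and made into libraries with Nextera XT, per the labels' protocols. The submitters' processing notes list kallisto 0.43.0 and GRCm38. The step from transcripts to genes is not given in the sources used here. For the 15 libraries in 5 groups the authors deposited 1 table of log2 values; from the values, the columns share one distribution, as quantile normalization gives. The columns with values of no sample numbered 0.

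The model, run in limma 3.58.1 (R 4.3.3) over the 15 libraries together, held a mean for each group (residual df 10), with trended and robust variance moderation. Benjamini-Hochberg adjustment ran over the 27994 genes in each comparison. Every adjusted p in the text is from this fit unless an alternative is named. Linear values (2 to the power of the value, minus 1) served for the filter, 1 or more in 3 or more libraries, and for ppm of the summed values. The replicate number was not a block in this fit. Deviations of same-numbered GFP3 and Total libraries from their group means correlated at 0.549, 0.262 and 0.345. The labels give each number 1 age and 1 length of doxycycline in all groups. Only the replicate block alternative uses the number, so the p-values of the main fit leave this pairing out. The labels do not say which libraries share mice, so a p-value reflects only how much these libraries vary.

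The comparison, 32 gene lists and the rule for named genes were chosen with earlier results of these data known. The rule took the 10 largest rises and the 10 largest falls among called genes averaging 10 ppm or more without overlap, leaving out predicted genes; up to 2 called genes each way per list by smallest p; up to 3 each way by size against GFP4 and GFP2; 12 immunoglobulin constant genes; and 24 genes by name, of which 1 and some list members are not reported here. Other list members are named beside their counts and were picked after their values were seen, as were Mcm5, Epor and Klf1, shown by library. Coordinates are from GENCODE M21. The code was tested on simulated data. Figures used matplotlib 3.10.9.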

Additional observations from a re-analysis of the deposited data

Results flagged for a closer look

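For 8 named genes the change against Total differed between GFP3 and GFP4, which is the contrast of GFP3 with GFP4 in limma (adjusted p under 0.05), since Total cancels. Tuba8, Slc22a3, Cit, Igf2bp2, Ahnak and Cyp26b1 were named because that contrast called them, so their values are a description. Without GFP4 replicate III the contrast called 0 genes higher and 0 lower. The fall against Total was smaller in GFP3 by 0.71 for Lmnb1, 0.71 for Cdk6, 1.02 for Tuba8, 1.27 for Slc22a3 and 0.95 for Cit, which encodes citron kinase of cytokinesis. For the other 3 GFP3 lay below GFP4. The difference was −1.54 for Igf2bp2, an RNA-binding protein, −1.29 for Ahnak, a large scaffold protein, and −1.08 for Cyp26b1. Igf2bp2 was 8.63, 9.41 and 9.45 in GFP3, 10.70, 10.56 and 10.85 in GFP4 and 8.86, 8.67 and 9.04 in Total. GFP3 overlapped Total (0.31, adjusted p = 0.642) and lay below GFP4. Ahnak was 9.82, 10.66 and 10.28 in GFP3, 11.65, 11.43 and 11.54 in GFP4 and 9.80, 10.46 and 9.87 in Total, with the same order (0.21 against Total, adjusted p = 0.723). The cause of these differences was not tested.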

How the results depend on the processing

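Alternatives were run for GFP3 against Total (188 higher, 362 lower, 49 immunoglobulin genes lower), GFP4 (12 and 4) and GFP2 (0 and 0). Higher genes against Total numbered 321 with a filter at a mean of 1 ppm, 33 with the groups compared alone, 22 without intensity trend and robust moderation, 121 without the GFP1 libraries in the fit and 63 with the count of lowest-value genes as a covariate; the last 2 settings were chosen after seeing the data. Lower genes numbered 91, 88, 235 and 174 in the last 4, and immunoglobulin genes 20 with the groups alone. With the replicate block there were 371 higher (all 188 among them) and 493 lower (all 362 among them). Against GFP4 the block gave 36 and 11, and against GFP2 1 and 3. Same-numbered libraries correlated at −0.227 to 0.474 with GFP4, where not every GFP3 library correlated best with its own number. With GFP2 each did, at 0.0412 to 0.489. The block changed no other call of the named genes than those given above.

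Leaving out 1 library gave 30 to 214 higher genes, 135 to 380 lower and 35 to 66 immunoglobulin genes against Total, with the fewest higher and lower without GFP3 replicate II (30 and 135), 41 and 161 without GFP3 replicate III and 124 and 236 without Total replicate III. Against GFP4 it gave 0 to 109 higher and 0 to 12 lower, the most without GFP3 replicate II and the fewest without GFP4 replicate III, and against GFP2 0 to 8 and 0 to 16. Against GFP4, higher and lower genes numbered 5 and 2 without a filter, 0 and 1 without trend and robust moderation and 3 and 2 with the covariate; higher genes were 7 at 1 ppm, 6 with the groups alone and 3 without GFP1, and lower genes 10 with array weights. Lower genes against GFP2 were 1 without immunoglobulin genes, 2 with array weights and 2 without trend and robust moderation. The cause of these shifts was not tested.

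Of 72 called named genes 28 kept the call in every alternative, and 9 lost it in the normalization without immunoglobulin genes; of 19 not called, 11 were never called. Without single libraries the difference ran from −0.056 (Total replicate II) to 0.28 (Total replicate III) for Vwf, and for Ly6a from −0.32 (Total replicate I) to 0.075 (GFP3 replicate I), also positive at 0.023 without Total replicate II. Depth is unknown, and the size of differences of genes near the lowest value is uncertain.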
